A study of Rattus norvegicus with 12 samples.

Results

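Clec4a2, Clec4a3, Slamf9 and Lilrb4 encode surface receptors of leukocytes from 3 families, the C-type lectins, the Slam receptors and the leukocyte immunoglobulin-like receptors. They were chosen by the deposited log2 values themselves, because all 4 lay higher in both laryngeal muscles after nerve injury, so their injury differences are given as description, without a test. They are 4 of 14329 genes measured with a single gene symbol, and each had 1 probe set. The arrays came from male F344 rats 1 week after surgery under xylazine at 10 mg/kg with ketamine at 75 mg/kg. In injured animals 1 cm of the recurrent laryngeal nerve, which drives these muscles, was cut out on one side. Control animals had the same approach with the nerve left whole. The vocal folds are opened by the posterior cricoarytenoid muscle (PCA) and closed by the adductor complex (AC). The groups were PCA injury, PCA control, AC injury and AC control, with 3 whole-transcript arrays each. The labels do not tie an array to an animal or say whether specimens were pooled. The spread behind each p-value is therefore that of arrays, and how much of it lies between animals is not known.

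Macrophages, dendritic cells and granulocytes carry such receptors in pairs that either activate or restrain the cell. Activating receptors signal through adaptor proteins with an activation motif (ITAM), which recruit the kinase Syk. Inhibitory receptors carry an inhibition motif (ITIM) in their own tail, which recruits phosphatases such as Shp1, the product of Ptpn6. After a motor nerve is cut, macrophages are known to enter the degenerating nerve and clear its myelin. Clec4a2 and Clec4a3 belong to the dendritic cell immunoreceptor lectins, whose human founder DCIR is inhibitory. Lilrb4 is an inhibitory receptor with an ITIM in mouse and human. Slamf9 is found on macrophages and dendritic cells in mouse and human, and lacks there the tyrosine switch motif of most Slam receptors.

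The sequence just before the transcript start is shown for all 4 genes, because they were picked for moving together. RefSeq promoter windows of build GRCr8 give 1 start per gene, and other transcripts may start elsewhere. Each window holds the 250 bases before that start, 5′ to 3′ on the gene's strand. Capitals mark the letters GAGGAA, or TTCCTC where they lie on the other strand. These letters are the core bound by PU.1, a transcription factor that macrophages need.
Clec4a2, chr4:157934346-157934595, plus strand: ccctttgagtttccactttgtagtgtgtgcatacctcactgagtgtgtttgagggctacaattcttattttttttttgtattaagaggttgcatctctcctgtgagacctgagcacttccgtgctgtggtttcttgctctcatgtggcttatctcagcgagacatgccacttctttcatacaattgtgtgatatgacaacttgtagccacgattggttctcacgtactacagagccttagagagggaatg
Clec4a3, chr4:157886508-157886757, plus strand: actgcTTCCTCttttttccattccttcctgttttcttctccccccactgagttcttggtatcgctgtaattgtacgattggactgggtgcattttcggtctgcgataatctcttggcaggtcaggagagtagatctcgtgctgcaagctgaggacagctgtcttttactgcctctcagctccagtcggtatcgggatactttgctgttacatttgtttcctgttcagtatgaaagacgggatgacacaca
Slamf9, chr13:87474077-87474326, plus strand: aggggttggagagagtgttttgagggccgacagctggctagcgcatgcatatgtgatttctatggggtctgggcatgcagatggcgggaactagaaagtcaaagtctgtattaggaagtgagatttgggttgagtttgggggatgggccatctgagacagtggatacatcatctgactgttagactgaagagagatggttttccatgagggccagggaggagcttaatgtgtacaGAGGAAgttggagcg
Lilrb4, chr1:78853253-78853502, minus strand: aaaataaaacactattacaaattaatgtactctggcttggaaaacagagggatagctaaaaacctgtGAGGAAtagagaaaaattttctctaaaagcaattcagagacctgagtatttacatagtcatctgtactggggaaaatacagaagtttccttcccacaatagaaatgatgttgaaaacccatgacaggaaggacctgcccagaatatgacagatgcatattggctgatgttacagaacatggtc

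GAGGAA was present in 1 copy each in Clec4a3, Slamf9 and Lilrb4 and was not found in Clec4a2, counting both strands. Of all 33469 windows of this length in the table, 23.3% held it. It lay at bases -245 to -240 before the start in Clec4a3, at -15 to -10 in Slamf9 and at -183 to -178 in Lilrb4. The letters CCAAT were found on the other strand in Clec4a2, Clec4a3 and Lilrb4 (34.0% of all windows hold them on either strand). None of the 4 windows held the AP-1 letters TGANTCA (6.34% of all windows) or TATAAA (12.9%), and no match overlapped another. Clec4a2 and Clec4a3 shared no run longer than 8 bases here, and the longest run shared by any of the 4 genes was 10 bases, between Clec4a2 and Lilrb4. GC content was 43.6% in Clec4a2, 47.2% in Clec4a3, 50.0% in Slamf9 and 36.8% in Lilrb4, against a median of 51.2% over all windows.

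The specimens carried the transcripts of skeletal muscle and of denervation. The mean log2 value of 10 muscle markers, with the actin Acta1 first listed, was 11.79 to 12.56 in PCA injury, against 12.73 to 12.87 in PCA control, and 12.05 to 12.32 in AC injury, against 12.41 to 12.63 in AC control. All 8 measured denervation genes, including the acetylcholine receptor subunit Chrna1, rose in both muscles by limma (adjusted p under 0.05). Of all genes 13.3% rose in PCA and 1.15% in AC. The denervation mean was 9.395 to 9.975 in PCA injury, against 7.905, 8.249 and 8.932 in PCA control 1, 2 and 3. It was 9.766 to 9.991 in AC injury, against 7.916 to 8.217 in AC control. PCA control 3 was thus the highest control. Tissue next to the muscles varied between specimens. The mean of 10 thyroid and parathyroid markers was 9.59 in PCA injury 2, 9.88 in PCA control 1 and 8.67 in AC injury 2. It was 6.22 to 7.33 in the other 9 arrays, but single markers were uneven among those. PCA control 3 had a Tg value of 13.10, although its Pth value was 5.12. PCA injury 1 read 11.34 for Tg and 7.90 for Pth, and PCA injury 3 read 8.44 for Tg. AC controls had Tg at 5.93 to 6.45. Leaving out the 3 arrays with a high mean therefore did not remove all Tg signal from PCA. The mean of 7 squamous epithelium markers was 10.37 to 10.93 in PCA injury, against 7.84 to 9.92 in PCA control, and 10.52 to 10.93 in AC injury, against 10.86 to 11.31 in AC control. The part of these tissues in the results was not tested beyond the alternatives printed with them.

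Lilrb4 had the widest difference of the 4 genes. Its log2 value was 11.05, 10.45 and 9.70 in PCA injury 1, 2 and 3, against 6.74, 6.97 and 6.37 in PCA control 1, 2 and 3. It was 8.46, 9.97 and 10.02 in AC injury, against 6.61, 6.76 and 7.57 in AC control. The injured and control arrays did not overlap in either muscle, and AC injury 1 lay 1.51 below the next array of its group. The log2 difference between injury and control was 3.71 ± 0.44 in PCA and 2.50 ± 0.44 in AC (SE from limma, n = 3 per group), which is 13.1-fold and 5.67-fold. By signed difference Lilrb4 ranked 9 of 14329 genes in PCA and 7 in AC.

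The lectin Clec4a3 had log2 values of 9.89, 9.27 and 9.19 in PCA injury, against 6.43, 7.19 and 6.82 in PCA control. In the AC they were 8.65, 8.97 and 9.30 in injury, against 7.21, 7.40 and 7.78 in control. The lowest injured array stood 2.00 above the highest control in PCA and 0.87 above it in AC. The mean differences were 2.64 ± 0.25 in PCA (6.22-fold) and 1.51 ± 0.25 in AC (2.85-fold). Of the 4 genes, Clec4a3 had the smallest spread around its group means.

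Clec4a2, the neighbour of Clec4a3 on chromosome 4, read 7.56, 6.75 and 6.89 in PCA injury, against 5.09, 4.70 and 4.84 in PCA control. It read 5.83, 6.97 and 6.63 in AC injury, against 4.91, 4.73 and 4.95 in AC control. Both control groups were tight, and the injured arrays of both muscles stood clear of them. The differences were 2.19 ± 0.27 in PCA (4.56-fold) and 1.61 ± 0.27 in AC (3.06-fold). Its mean over the 12 arrays, 5.82, is below the 25th percentile of gene means (6.23). Values that near the floor of an array tend to understate a fold change.

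Slamf9 had log2 values of 9.0, 8.42 and 8.29 in PCA injury, against 6.02, 6.54 and 6.13 in PCA control. In the AC it read 7.23, 7.93 and 8.49 in injury, against 6.25, 6.06 and 6.62 in control. The groups did not overlap in either muscle, although AC injury 1 came within 0.61 of the highest AC control. The differences were 2.34 ± 0.29 in PCA (5.06-fold) and 1.57 ± 0.29 in AC (2.98-fold).

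For all 4 genes the injured arrays lay wholly above the controls, as they did for 18.2% of all genes in PCA and 15.3% in AC. Since the genes were picked for this, nothing is read from it. PCA injury 1 was the high array of PCA injury for each of the 4 genes, and AC injury 1 was the low array of AC injury for each. In whole muscle, more cells that carry a receptor and more receptor RNA per cell cannot be told apart.

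**Figure D1:**
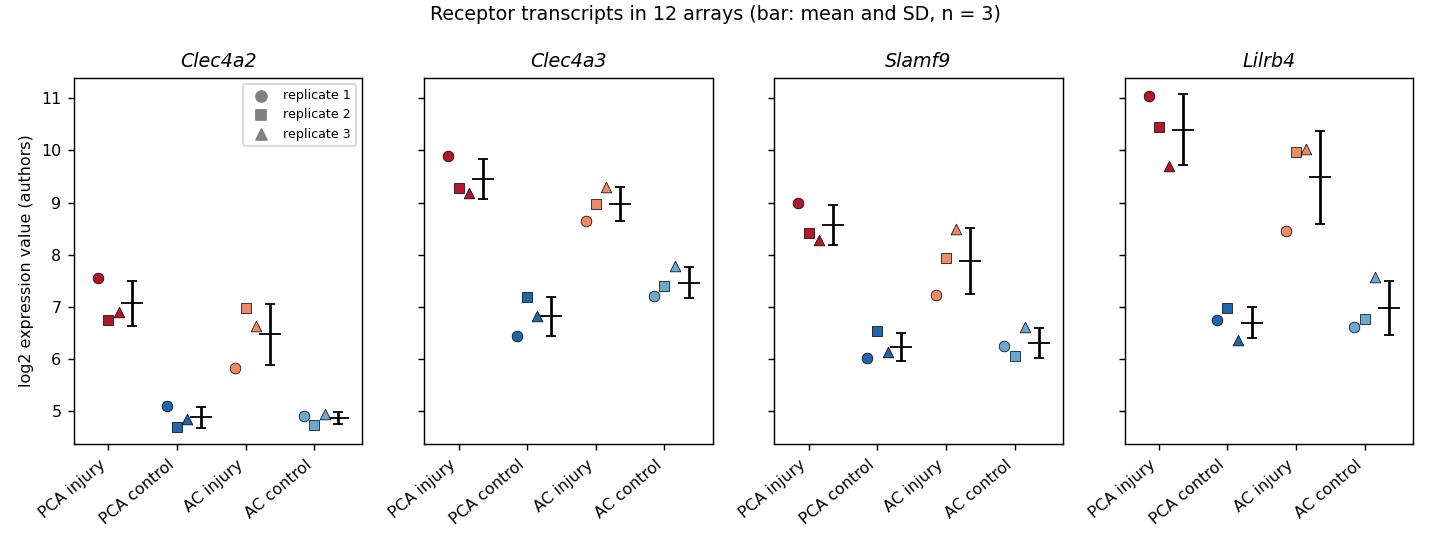
Log2 expression value (vertical axis) of Clec4a2, Clec4a3, Slamf9 and Lilrb4 in each of 12 arrays, by group (horizontal axis); symbols mark the replicate, and the bar beside them is the mean and SD of 3 arrays. In all 4 panels the injured arrays lie above the control arrays of the same muscle, and AC injury 1 is the lowest injured array.

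The first comparison not itself used to choose the genes was PCA against AC after injury, although the choice drew on the same arrays. None of the 4 genes passed it at a limma adjusted p under 0.05. Lilrb4 averaged 10.40 ± 0.68 in PCA injury and 9.48 ± 0.89 in AC injury (SD, n = 3 each), a difference of 0.92 with a 95% confidence interval of -0.05 to 1.89. Slamf9 averaged 8.57 ± 0.38 in PCA injury and 7.88 ± 0.63 in AC injury, a difference of 0.69 (0.04 to 1.33). Clec4a2 averaged 7.07 ± 0.43 in PCA injury and 6.48 ± 0.59 in AC injury, a difference of 0.59 whose interval ran from just under 0 to 1.18. Clec4a3 averaged 9.45 ± 0.38 in PCA injury and 8.97 ± 0.33 in AC injury, a difference of 0.48 (-0.06 to 1.02). Values of both groups overlapped for each gene, where 2.21% of all genes lay wholly higher in PCA injury, and each adjusted p was 0.999 by limma. By this test 0 of 14329 genes passed (0%), with 517 at an unadjusted p under 0.05 (3.61%), of which Slamf9 was the 1 member. Single arrays weighed on these sizes. Without AC injury 1 the difference was 0.27 for Clec4a2, 0.32 for Clec4a3, 0.36 for Slamf9 and 0.41 for Lilrb4, and without PCA injury 1 it was 0.34, 0.26, 0.47 and 0.59 in the same order. With each array left out in turn it reached at most 0.84 for Clec4a2, 0.64 for Clec4a3, 0.99 for Slamf9 and 1.27 for Lilrb4. Since all 4 intervals reach past 1 on the log2 scale, a 2-fold higher value in PCA lies within them.

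In control animals none of the 4 genes passed between the muscles, against 10.6% of all genes. Clec4a3 averaged 6.81 ± 0.38 in PCA control and 7.46 ± 0.29 in AC control (SD, n = 3 each), a difference of -0.65 (95% confidence interval -1.19 to -0.11, limma adjusted p = 0.12). All 3 PCA controls lay below all 3 AC controls, as they did for 15.9% of all genes. The other 3 genes overlapped, with a difference of -0.29 for Lilrb4 (-1.26 to 0.68, limma adjusted p = 0.719), -0.08 for Slamf9 (-0.73 to 0.57, adjusted p = 0.895) and 0.01 for Clec4a2 (-0.58 to 0.61, adjusted p = 0.983). With array weights Clec4a3 passed limma (-0.72, adjusted p = 0.0407), the lowest of a range up to 0.837 over 22 alternatives. Macrophage markers were lower in PCA controls too. Of 17, 6 were lower, as were 7.39% of all genes, and 0 higher, and their mean was 7.77 to 8.47 in PCA control, against 8.70 to 8.95 in AC control. Whether the receptors differ in this from the macrophage markers was not tested.

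The injury effect was nominally larger in PCA than in AC for each gene, without passing the test of the difference. Both effects compared here were used to choose the genes, though their difference was not. The PCA effect minus the AC effect was 1.20 for Lilrb4 (95% confidence interval -0.17 to 2.57, limma adjusted p = 0.383) and 1.13 for Clec4a3 (0.36 to 1.89, adjusted p = 0.139). It was 0.77 for Slamf9 (-0.15 to 1.68, limma adjusted p = 0.404) and 0.58 for Clec4a2 (-0.26 to 1.41, adjusted p = 0.504). Of all genes 22 passed (0.154%), and 2247 had an unadjusted p under 0.05 (15.7%), with Clec4a3 as the 1 member. Without AC injury 1 the difference of the effects was 0.69 for Lilrb4, 0.44 for Slamf9 and 0.25 for Clec4a2, which was 0.33 without PCA injury 1. With each array left out in turn it ran up to 1.55 for Lilrb4, 1.07 for Slamf9 and 0.82 for Clec4a2, and from 0.91 to 1.32 for Clec4a3. These 3 comparisons gave 12 tests of the 4 genes. The adjusted p of Clec4a3 for the difference ran from 0.0815 to 0.769 over 21 alternatives.

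**Figure D2:**
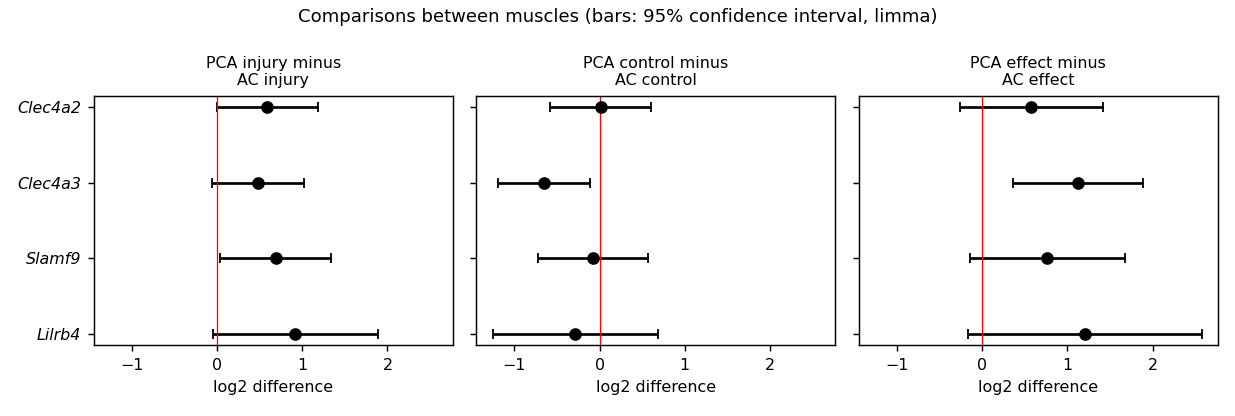
Log2 differences (horizontal axis) of the 4 genes in 3 comparisons between muscles: PCA injury minus AC injury, PCA control minus AC control, and the PCA injury effect minus the AC injury effect. Points are limma estimates and bars 95% confidence intervals; the intervals of Slamf9 in the first panel and of Clec4a3 in the other 2 leave out 0, before adjustment over all genes.

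The 2 lectin members lie in a cluster of lectin genes on chromosome 4. The other 5 measured lectins there rose in PCA, 2 of them also in AC, where 13.3% and 1.15% of all genes rose by limma. In the order of the RefSeq annotation the measured lectin genes are Clec4a1, Clec4a3, Clec4a2, Clec4a, Clec4b2, Clec4d and Clec4e. Clec4e, the Mincle receptor that signals through Fcer1g and senses mycobacterial glycolipid and dead cells, differed by 2.51 ± 0.49 in PCA (limma adjusted p = 0.00394). Clec4a1 differed by 1.83 ± 0.20 (limma adjusted p = 0.000311), and Clec4d, which pairs with Clec4e in mouse, by 1.82 ± 0.45 (adjusted p = 0.0128). Clec4a, at 1.18 ± 0.19, and Clec4b2, at 0.63 ± 0.13, moved least. In the AC, Clec4a1 (1.09 ± 0.20) and Clec4b2 (0.68 ± 0.13) rose, each with a limma adjusted p of 0.03. The other 3 did not pass there, with 1.64 ± 0.49 for Clec4e (limma adjusted p = 0.0975), 0.96 ± 0.45 for Clec4d (adjusted p = 0.261), whose groups overlapped, and 0.61 ± 0.19 for Clec4a (adjusted p = 0.116).

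Clec4a1 shows the cluster array by array. Its log2 values were 10.32, 9.91 and 9.69 in PCA injury, against 7.89, 8.56 and 7.99 in PCA control, and 9.45, 9.56 and 9.91 in AC injury, against 8.39, 8.54 and 8.73 in AC control. Clec4e varied more among injured arrays, with 9.22, 7.17 and 8.17 in PCA injury, against 5.70, 5.70 and 5.63 in PCA control, and 6.58, 8.18 and 8.16 in AC injury, against 6.01, 5.72 and 6.26 in AC control. Neither gene overlapped between injury and control, and AC injury 1 was again the lowest AC injury array.

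Genes beside the lectins did not all move. Slc2a3, a glucose transporter gene at the near end, rose by 0.71 ± 0.15 in PCA (limma adjusted p = 0.00582) and differed by 0.40 ± 0.15 in AC without passing (adjusted p = 0.164). Necap1, a coat protein of endocytic vesicles that lies between C3ar1 and Clec4a1, differed by 0.00 ± 0.09 in PCA and -0.10 ± 0.09 in AC. Foxj2 differed by -0.09 ± 0.09 in PCA and Vom2r48, a pheromone receptor gene on the far side of Clec4e, by 0.02. C3ar1, the macrophage receptor for the complement fragment C3a, rose by 2.31 ± 0.24 in PCA (limma adjusted p = 0.000238) and by 1.27 ± 0.24 in AC (adjusted p = 0.03). Probe sets of lectins so alike in sequence may share RNA, which makes each of them uncertain on its own.

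**Figure D3:**
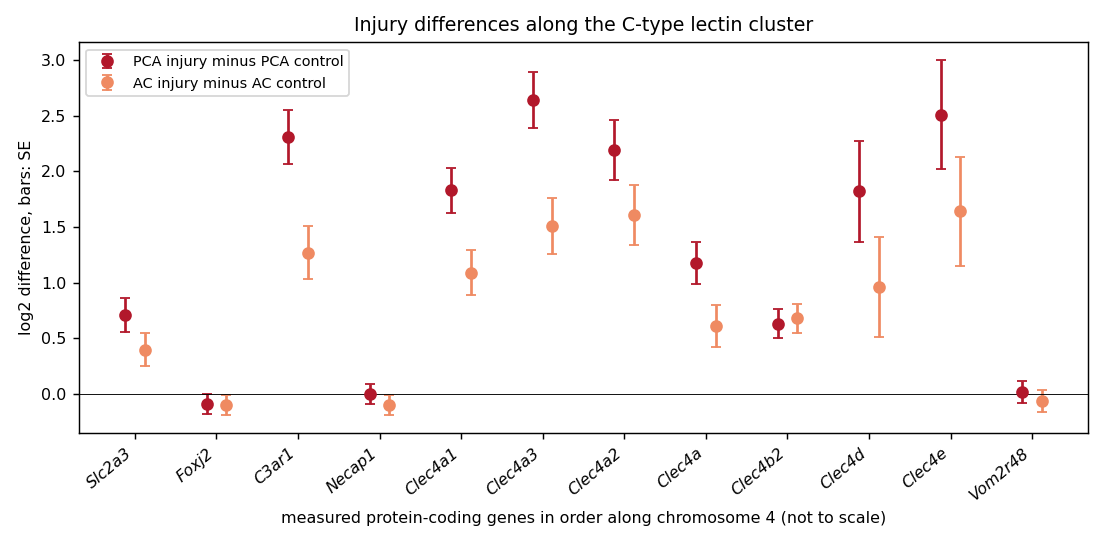
Injury minus control log2 difference with its SE (vertical axis) for 12 measured protein-coding genes in their order along chromosome 4 (horizontal axis, not to scale), dark points for PCA and light points for AC. The 7 lectin genes and C3ar1 lie above 0 in both muscles, as does Slc2a3 (0.71 in PCA and 0.40 in AC), while Foxj2, Necap1 and Vom2r48 lie at or near 0.

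Around Slamf9 on chromosome 13, its relative Slamf8, which curbs oxidant production of macrophages in mouse, rose in PCA. Slamf8 read 8.11, 7.46 and 7.36 in PCA injury, against 6.43, 6.56 and 6.35 in PCA control. It differed by 1.20 ± 0.20 (limma adjusted p = 0.00173), and by 0.75 ± 0.20 in AC without passing (adjusted p = 0.0749). Only 3 of 8 other listed Slam genes were measured, and Cd48 and Slamf1 among them differed by 0.10 and -0.02 in PCA. The genes next to Slamf9 differed in PCA by 0.19 (Pigm) and -0.13 (Igsf9). Beyond Igsf9, Tagln2 rose in PCA by 0.65 ± 0.08 (limma adjusted p = 0.000503) and differed by 0.08 in AC.

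Lilrb4 lies on chromosome 1 beside Lilra5, an activating member of its family in human. Lilra5 read 8.17, 7.80 and 7.14 in PCA injury, against 6.20, 6.39 and 6.35 in PCA control, and 6.68, 6.93 and 7.35 in AC injury, against 6.14, 6.13 and 6.22 in AC control. All 4 measured relatives of Lilrb4 rose in PCA by limma, where 13.3% of all genes did, with a median difference of 1.09 against -0.03 over all genes. They were Lilra5 (1.39 ± 0.23, adjusted p = 0.00161), Pira2 (1.32 ± 0.19, adjusted p = 0.000829), Lilrb2 (0.85 ± 0.21, adjusted p = 0.0122) and Lilrc2 (0.67 ± 0.19, adjusted p = 0.025). In AC none passed, 3 had an unadjusted p under 0.05 (20.3% of all genes did), and the median difference was 0.60. Beyond Lilra5, Cdc42ep5 rose in PCA by 0.50 ± 0.09 (limma adjusted p = 0.00289) and differed by 0.26 in AC without passing (adjusted p = 0.151). On the other side of Lilrb4, the natural killer receptor gene Kir3dl1 differed by -0.07 in PCA. Of the proteins known to bind Lilrb4 in human or mouse, Apoe, the lipid carrier of macrophages, rose in PCA by 1.23 ± 0.15 (limma adjusted p = 0.000409), while Fn1 differed by 0.25 and Alcam by -0.03.

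Among 24 other measured leukocyte lectins, 12 rose in PCA and 0 fell by limma, where 13.3% of all genes rose. In AC 2 rose, Clec4a1 and Clec4b2, where 1.15% of all genes did. The median difference was 0.61 in PCA and 0.46 in AC, against -0.03 and 0.02 over all genes. Clec7a, the Dectin-1 receptor for fungal glucan, read 10.80, 10.01 and 9.99 in PCA injury, against 8.12, 8.24 and 8.28 in PCA control. It differed by 2.05 ± 0.28 (limma adjusted p = 0.000697). Olr1, a scavenger receptor for oxidised lipoprotein, differed by 1.83 ± 0.23, Clec5a, an activating receptor of myeloid cells, by 1.43 ± 0.23, and Mrc1, the mannose receptor, by 1.25 ± 0.22. Clec12a (0.90 ± 0.16), Cd72 (0.80 ± 0.16) and Clec10a (0.70 ± 0.14) rose too. Cd72 is known mainly from B lymphocytes. Other lectins of lymphocytes did not pass in PCA, with 0.58 ± 0.23 for Klrk1, 0.17 for Cd69, 0.02 for Klrb1, 0.04 for Klrb1a and 0.01 for Klrd1. Klrk1 was wholly higher in AC injury (7.49, 7.92 and 7.95) than in AC control (7.31, 7.21 and 7.19) without passing limma there (adjusted p = 0.212). In PCA, Clec9a (0.16), of cross-presenting dendritic cells, Clec4f (-0.23), of liver macrophages in rodents, and Cd209a (-0.06) did not pass either. Clec9a read 6.15, 6.59 and 6.27 in AC injury, against 5.70, 5.75 and 5.67 in AC control, without passing.

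These list counts moved with tissue and arrays. With the squamous epithelium score as a covariate, chosen after seeing the data, 3 of the 24 lectins rose in PCA. That score was 7.84 to 9.92 in PCA control and 10.37 to 11.31 in the other groups. It thus sets PCA control apart, and the 2 cannot be told apart well from injury in PCA. With it the SE of the PCA injury difference rose from 0.25 to 0.45 for Clec4a3 and from 0.44 to 0.81 for Lilrb4. It rose from 0.27 to 0.46 for Clec4a2 and from 0.29 to 0.54 for Slamf9. Without the 3 arrays high in thyroid and parathyroid transcripts 0 rose in AC. Leaving out 1 array at a time gave 11 to 13 in PCA and 0 to 7 in AC, with 0 without AC injury 2 or 3 or without any 1 of the AC controls. The AC count was 7 without PCA injury 1 and 5 without AC injury 1.

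**Figure D4:**
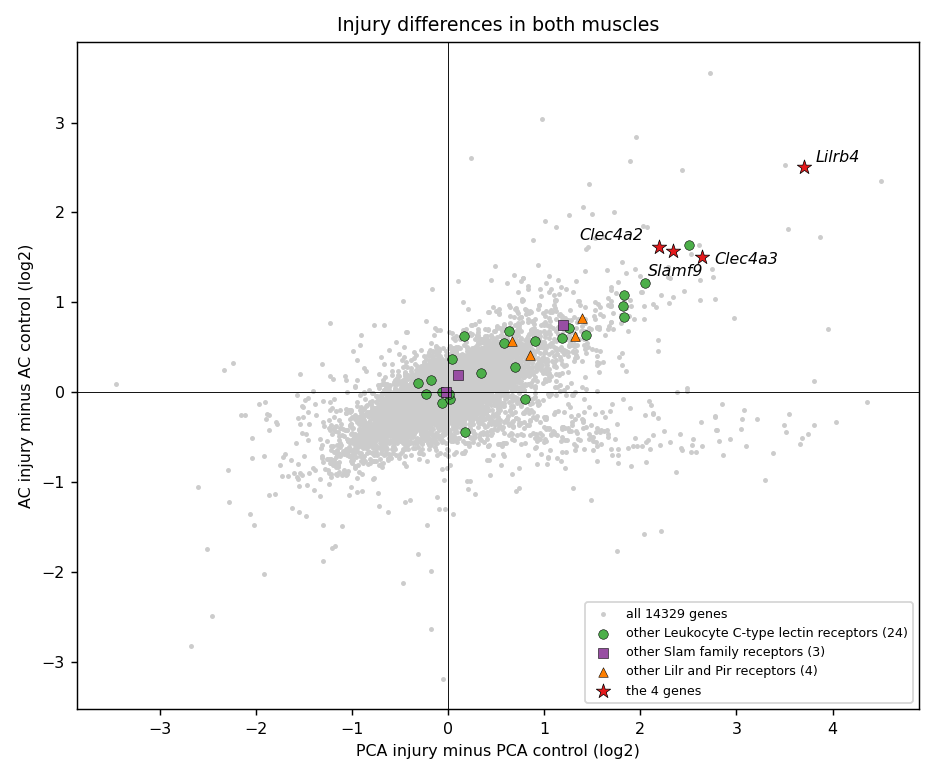
Injury minus control log2 difference in PCA (horizontal axis) and in AC (vertical axis) for 14329 genes (grey points), with the 4 genes as stars and the other measured lectin, Slam and Lilr receptors in colour. Lilrb4 lies at 3.71 in PCA and 2.50 in AC, and Clec4e, the farthest of the other lectins, at 2.51 in PCA and 1.64 in AC.

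Paired receptors of other families, and the signalling proteins beneath them, were also higher in PCA. Of 14 measured paired and immunoglobulin-type receptors 10 rose there (13.3% of all genes did) and 0 fell by limma, with a median difference of 0.91. Trem2, a lipid-sensing receptor of macrophages, differed by 2.46 ± 0.28 (adjusted p = 0.000317), the high-affinity IgG receptor Fcgr1a by 1.66 ± 0.24 and the inhibitory Cd200r1 by 1.26 ± 0.15. Inhibitory Cd300a differed by 1.07 ± 0.21 in PCA and by 0.91 ± 0.21 in AC, where it missed the threshold (limma adjusted p = 0.0507). None of the 14 passed in AC, with 6 at an unadjusted p under 0.05 (20.3% of all genes were) and a median of 0.50. In PCA the count was 3 once the squamous score entered the model, and in AC it was 5 without PCA injury 1 and 3 without PCA injury 3 or AC injury 1.

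Of 20 measured ITAM and ITIM signalling proteins, 12 rose and 1 fell in PCA by limma, where 13.3% of all genes rose and 12.5% fell. In AC 1 rose, where 1.15% of all genes did. The ITAM adaptor Fcer1g, which serves Clec4e and the activating Lilr and Pir receptors, read 12.07, 11.71 and 11.69 in PCA injury, against 9.26, 10.01 and 9.32 in PCA control. In AC it read 11.24, 11.64 and 11.77 in injury, against 10.47, 10.54 and 10.65 in control. It differed by 2.29 ± 0.20 in PCA (limma adjusted p = 0.00018) and by 1.00 ± 0.20 in AC (adjusted p = 0.0367). The adaptor Tyrobp differed by 2.14 ± 0.25 in PCA (limma adjusted p = 0.000394). Ptpn6, the phosphatase that ITIM receptors recruit, differed by 0.66 ± 0.13 in PCA (limma adjusted p = 0.00354) and by 0.31 ± 0.13 in AC (adjusted p = 0.193). Ptpn11, the related and widely expressed phosphatase, was the 1 that fell in PCA, by 0.35 ± 0.11 on the log2 scale (limma adjusted p = 0.0412), and it is named after its value was seen. The PCA count of 12 became 3 once the squamous score entered the model. The AC count was 0 without the 3 thyroid-rich arrays, 4 without PCA injury 1, 2 without PCA injury 3 or AC injury 1, and 0 without AC injury 2 or 3 or any 1 AC control.

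Markers of the cells that could carry these receptors moved unevenly. Of 17 macrophage markers 15 rose in PCA and 3 in AC by limma, against 13.3% and 1.15% of all genes, and none fell. Cd68, a lysosomal protein of macrophages, differed by 2.76 ± 0.27 in PCA (limma adjusted p = 0.000207) and by 1.28 ± 0.27 in AC (adjusted p = 0.0429). Their mean log2 value was 9.93, 9.52 and 9.54 in PCA injury, against 7.77, 8.47 and 8.11 in PCA control, and 9.34, 9.54 and 9.73 in AC injury, against 8.70, 8.75 and 8.95 in AC control. Injured arrays lay above controls in both muscles, and PCA injury 1 was high and AC injury 1 low, as for the 4 receptors. The scavenger receptors Cd163 (0.22 in PCA) and Marco (0.04) did not pass. The macrophage list shares Mrc1 with the lectins and Trem2 with the paired receptors. Once the squamous score entered the model, 6 of the 17 rose in PCA and 0 in AC. In AC 0 rose without the thyroid-rich arrays, without AC injury 2 or 3, without PCA control 3 or without any 1 AC control, and 1 without PCA injury 2. The AC count was 7 without PCA injury 1, 5 without PCA injury 3 and 6 without AC injury 1.

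Of 9 dendritic cell markers 5 rose in PCA (13.3% of all genes did) and 0 in AC. There 6 had an unadjusted p under 0.05, as 20.3% of all genes did. This list shares Clec9a and Clec10a with the lectins, and Clec10a is among the 5. Their mean was 7.50 to 7.89 in PCA injury, against 7.15 to 7.29 in PCA control, and 7.52 to 7.71 in AC injury, against 7.11 to 7.31 in AC control. Of 11 neutrophil markers, with a median difference of 0.06 in PCA, 2 rose there, near the 13.3% of all genes, the chemokine receptor Cxcr2 (1.85 ± 0.25) and Csf3r (1.81 ± 0.41), while in AC 0 rose and 4 fell, led by the granule gene Ngp (-3.19 ± 0.52), against 0.761% of all genes. The neutrophil mean was 6.05 to 6.34 in PCA injury, against 5.68 to 5.79 in PCA control. It was 6.24 to 6.78 in AC injury, against 7.10 to 7.60 in AC control, lower in injury where the 4 receptors were higher, but its genes were mixed. Csf3r, the receptor for the granulocyte growth factor, read 7.91, 9.71 and 8.40 in AC injury, against 7.12, 7.46 and 7.09 in AC control, without passing (1.45 ± 0.41, limma adjusted p = 0.0863), and 3 of the 11 markers were nominally higher. Of 12 T and NK cell markers 2 rose in PCA, near the 13.3% of all genes, and 0 in AC (4 at an unadjusted p under 0.05). Of 7 mast cell markers 0 passed in either muscle (0 in PCA and 3 in AC at an unadjusted p under 0.05). Over all genes an unadjusted p under 0.05 was reached by 36.9% in PCA and 20.3% in AC. Of 3 measured B and plasma cell markers 0 rose and 1 fell in each muscle, with a median difference of -0.25 in PCA and -0.17 in AC. Of all genes 12.5% fell in PCA and 0.761% in AC. The part of each cell type in the receptor values was not tested.

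**Figure D5:**
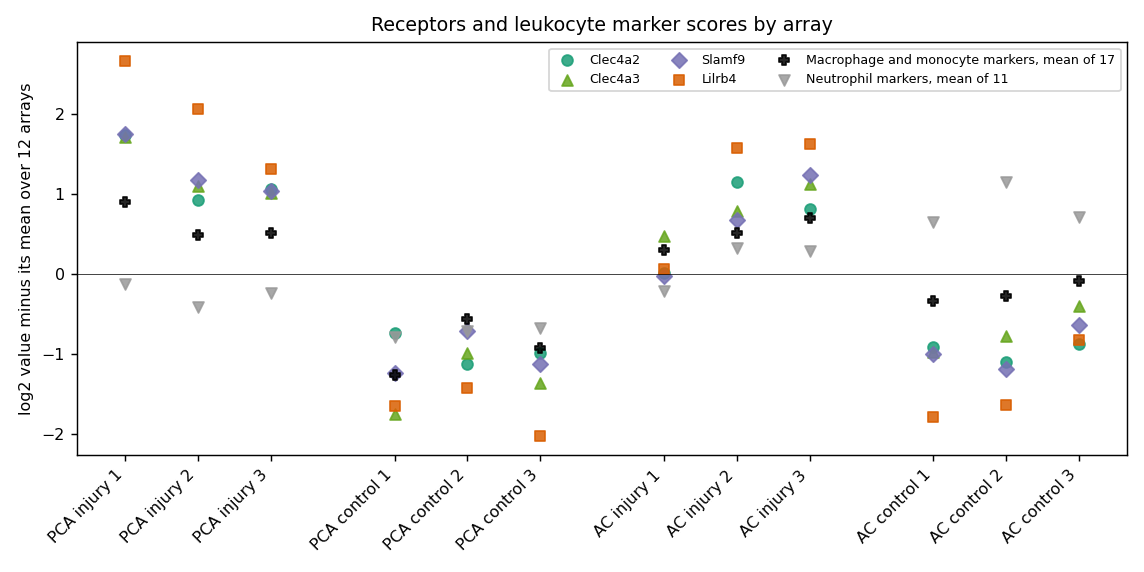
Log2 value minus its mean over 12 arrays (vertical axis) for the 4 receptors, the mean of 17 macrophage markers and the mean of 11 neutrophil markers, in each array (horizontal axis). The receptors and the macrophage mean are above 0 in PCA injury and below it in both control groups. The neutrophil mean is above 0 in AC control, below it in PCA injury and lowest in PCA control.

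The genes most like each receptor across the 12 arrays were found by the root mean square distance between log2 profiles, each centred on its own mean. This is a description, since all profiles share the injury difference. Clec4a3 was closest to Cd68 (0.14 on the log2 scale), C3ar1 (0.17), the complement receptor chains Itgam (0.23) and Itgb2 (0.24), and the survival gene Bcl2a1 (0.24), against a median of 1.13 over all genes. Slamf9 was closest to the chemokine Ccl3 (0.24), Trem2 (0.24), Itgb2 (0.26), the phagosomal metal transporter Slc11a1 (0.26) and the macrophage pore protein Mpeg1 (0.27). Clec4a2 was closest to Slamf9 (0.29), Ccl3 (0.29), Clec7a (0.29), Slc11a1 (0.29) and Klra5 (0.33), a lectin-like receptor of the Ly49 type. The distance grows with the size of a gene's own changes, so it is not compared between the 4. For Lilrb4 the nearest were the macrophage elastase Mmp12 (0.47), Gpnmb (0.55), Slc11a1 (0.62), Slamf9 (0.65) and Clec4a3 (0.66), against a median of 1.68. Mmp12 differed by 4.50 ± 0.55 in PCA and 2.35 ± 0.55 in AC.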

How the data were processed

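The values used are the log2 expression values that the authors deposited, for 27342 probe sets on 12 Affymetrix whole-transcript rat arrays (100 ng of total RNA labelled, per the labels). The submitters' processing notes name RMA and Partek with no version or role. The log base is not given in the sources used here and was taken as 2 from the range, 2.57 to 14.04. Array medians were 7.11 to 7.17, so a difference is relative to the rest of its array. Precision is set by the number of arrays, since arrays have no read depth.

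The platform annotation gives 15103 probe sets a single symbol, 317 several and 11922 none. RefSeq of GRCr8 was used for names (15073 matched), gene order and promoter windows. Where a gene had several probe sets, the brightest on average was used. Limma 3.58.1 (R 4.3.3) fitted 4 group means to all 12 arrays, with two-sided tests, Benjamini-Hochberg adjustment over 14329 genes and a threshold of 0.05, and was tested on simulated data. Plots were drawn with Python 3.11.15 and matplotlib 3.10.9. A list's score is the mean log2 value of its genes. Text names the 4 receptors, the 5 genes nearest to each, listed lectin, Slam and Lilr genes, and from other lists the first and the 3 with the smallest adjusted p. Chromosome neighbours, Cd163, Marco, Ptpn11 and Csf3r in AC fall outside that rule, chosen with their values in view. The members and lists were chosen with earlier results of these data known. Alternatives covered normalisation, a filter on dim genes, probe set choice, prior, array weights, replicate block, groups fitted, tissue scores and leaving out each array.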

Additional observations from a re-analysis of the deposited data

How the results depend on the processing

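No gene passed between injured PCA and injured AC under any alternative, and no alternative turned an injury difference of the 4 genes. The genes were picked for that difference, and their injured arrays lay wholly above the controls. Leaving out 1 array therefore could not turn it, and only its size is described. Leaving out each array in turn, that difference ran in PCA from 1.94 to 2.35 for Clec4a2, 2.42 to 2.83 for Clec4a3, 2.13 to 2.50 for Slamf9 and 3.38 to 4.06 for Lilrb4, and in AC from 1.37 to 1.94, 1.35 to 1.67, 1.27 to 1.90 and 2.24 to 3.02 in the same order. Clec4a2 in PCA moved to 2.65 with the squamous score as a covariate. Between controls Clec4a2 turned to -0.0572 after another quantile normalisation, -0.0192 with array weights, -0.0933 without the 3 thyroid-rich arrays and -0.53 with the squamous score, and ran from -0.0933 to 0.10 with 1 array left out. Slamf9 turned to 0.025 without those 3 arrays and to 0.0278 with the squamous score, and ran from -0.24 to 0.075. Lilrb4 ran from -0.47 to 0.0083. Clec4a3 passed at -0.72 with array weights.

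In the lists, the squamous score left 3 lectins, 3 paired receptors, 3 signalling proteins and 6 macrophage markers higher in PCA. That score sets PCA control apart from the other groups, and with it the SE of the receptors' injury differences in PCA widened. In AC, leaving out each array gave 0 to 7 lectins, 0 to 5 paired receptors, 0 to 4 signalling proteins and 0 to 7 macrophage markers, and 0 of each without the thyroid-rich arrays.

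Counts over all genes moved more. The fits without the 3 thyroid-rich arrays kept PCA control 3 and PCA injury 1, where Tg was still high. Injury in PCA called 3697 genes, but 2335 without the thyroid-rich arrays, 379 with the squamous score, 2257 with only its own groups fitted and 2466 to 3558 with 1 array left out. Injury in AC called 274, but 703 with array weights, 10 without the thyroid-rich arrays, 119 with the squamous score, 619 with only its own groups and 13 to 663 with 1 array left out. Between controls 1523 became 2626 with array weights, 812 without the thyroid-rich arrays, 2 with the squamous score and 714 to 1813 with 1 array left out. For the difference of the injury effects 22 became 39 after another quantile normalisation, 35 with a trended and robust prior, 348 with array weights, 0 without the thyroid-rich arrays, 0 with the squamous score and 0 to 406 with 1 array left out. With the replicate number as a block, injury in AC called 59 genes and the difference of effects 0. Most same-numbered arrays did not deviate together (4 of 18 pairs had a correlation above 0.1, and 3 were best matched to their own number). Pairs that join control and injured animals cannot show a shared animal. Between AC injury and PCA injury the correlation was -0.393, 0.339 and 0.269 for numbers 1, 2 and 3. There, numbers 2 and 3 were best matched to their own number. These values do not settle whether the number pairs samples. With the replicate block 1162 genes passed between controls (1123 of the 1523 among them) and 3239 for injury in PCA (3160 of the 3697). None of the 4 genes changed its call in the muscle comparisons with that block. The lists were not fitted with the block. Clec4a2 has no value under the filter on dim genes. The cause of these shifts was not tested.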
